A study of Mus musculus with 8 samples.

Results

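Long intergenic noncoding RNAs (lincRNAs) are transcripts that lie between protein-coding genes and have no long open reading frame. The set described here holds every gene that the deposited table marks as lincRNA, without H19 and Meg3. It comprises 224 of the 14578 genes in the table, with 268 transcripts. Of these genes 189 had 1 transcript and 32 had 1 exon. In a current annotation of the same build, GENCODE M21, 208 are still lincRNAs, 7 are antisense RNAs, 6 start from bidirectional promoters, 2 are processed transcripts and 1 is an unprocessed pseudogene. RNA came from the left ventricle of mice aged 6 months, all on a C57 background whose substrain is not given. There were 2 wild-type (WT) libraries, 3 of mdx mice, which lack dystrophin through a mutation of Dmd, and 3 of mdx mice heterozygous for a Sln mutation (mdx sln+/-). The gene product, sarcolipin, is a small inhibitor of the calcium pump of the sarcoplasmic reticulum, and its transcript was not analysed here. The design asks how the diseased ventricle differs from WT and what the Sln allele changes in it. Whether each library stands for its own animal is not stated. The p-values therefore reflect only how these libraries vary, which may be technical variation.

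LincRNAs act in several ways. Some, such as Malat1 and Neat1, stay in the nucleus and build or mark nuclear bodies. Others bind proteins or microRNAs in the cytoplasm, host small nucleolar RNAs in their introns, or are transcribed beside a gene whose activity they share. Several genes once filed as lincRNAs are now known to encode small proteins. Most are found at low levels, and many overlap or resemble other genes, which matters where short reads are assigned to them.

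Levels are log2(summed value + 1), where the value is the deposited normalized abundance, and depth is unknown because no counts were used. Scaling to transcript length is not stated in the sources used here, so a difference in level between genes is not read as one in abundance. Sums and shares add the deposited values as they are. The 8 libraries sum to between 780262 and 924253 on the linear scale, and lincRNAs took 0.260 to 0.318% of that sum. A gene was tested if its value reached 1 in at least 2 libraries, which 178 of the 224 lincRNAs did. Of these, 14 reached it in WT libraries alone, 4 in mdx alone and 3 in mdx sln+/- alone. The other 46 had mean log2 levels from 0.40 to 0.91. Even among the 178 the median of the mean log2 levels was 1.51, 115 lay under 2 and 15 reached 4. As a label check, the log2 level of Dmd was 6.60 and 6.98 in WT, 4.30, 4.32 and 4.22 in mdx, and 4.09, 4.10 and 4.25 in mdx sln+/-, with no overlap with WT. Markers of cardiomyocytes fitted the tissue label: all 12 were measured, 0 were called in any comparison, and their summed log2 level was 16.01 to 16.16 in all libraries. Of 7 atrial markers 4 were measured, with a median change of -0.19 in mdx. Nppa (1.12 ± 0.27) and Gja5 (0.45 ± 0.09) were called higher in mdx, Stard10 (-0.83 ± 0.23) and Sbk2 (-0.96 ± 0.41) were not called, and 0 of the 4 were called in mdx sln+/- against WT. The summed level of the 4 was 7.96 to 8.63 in WT, 9.02 to 9.46 in mdx and 8.97 to 9.41 in mdx sln+/-, and their part in the results was not tested. The summed level of 4 Y-linked genes ranged from 2.12 to 7.61 within WT, lowest in WT 2, and was lowest outside WT in mdx sln+/- 3 (2.64). In the deposited values the contrast between libraries numbered 2 and the rest, over the 6 of both mdx genotypes, was 0 for every gene (largest departure 5.13e-05). The fit spends a term on it.

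The lincRNA with the highest deposited level, Gm26825 (ENSMUSG00000097554), shows how closely a lincRNA can resemble a coding gene. It lies at chr5:5781530-5783636, plus strand (GRCm38/mm10), with 2 exons and a transcript of 2026 bases. Of these, 1940 bases aligned to the opposite strand of the mRNA of Hspa8 (chr9:40800984-40810087), with 5 mismatches, 1 gap and 99.6% identity. Hspa8 encodes the constitutive heat shock protein HSC70, a chaperone that folds new proteins and uncoats clathrin vesicles. The stretch below covers 150 bases within the coding sequence of Hspa8. It was picked because no other stretch of that length there, free of gaps, holds more differences. Even from it a short read can seldom be assigned by sequence alone. The stretch is written 5′ to 3′ along Gm26825, with Hspa8 as its reverse complement. Capitals mark the 2 differences, A15G and A150G, counted from 1 at the left end with the Gm26825 base first.
Gm26825: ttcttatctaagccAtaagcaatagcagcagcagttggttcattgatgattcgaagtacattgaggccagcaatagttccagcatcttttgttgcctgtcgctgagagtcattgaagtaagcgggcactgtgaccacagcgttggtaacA
Hspa8: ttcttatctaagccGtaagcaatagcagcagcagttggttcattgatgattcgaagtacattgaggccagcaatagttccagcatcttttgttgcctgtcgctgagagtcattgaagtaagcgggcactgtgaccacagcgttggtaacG
Gm26825 also runs antisense to Gm15459, a processed pseudogene of Hspa8, over 1855 bases that match in full. The sources used here do not say if reads were counted by strand, and reads of the 3 genes cannot be told apart with certainty.

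Gm26825 was higher in the mdx ventricle and carried much of the lincRNA signal. At the log2 scale it stood at 8.25 and 7.98 in WT, 9.93, 9.63 and 9.80 in mdx, and 9.49, 9.74 and 9.52 in mdx sln+/-. Every library of both mdx groups lay above both WT libraries. It rose by 1.67 ± 0.14 (SE) in mdx against WT, a level 3.19-fold higher (limma, adjusted p = 0.00167), and by 1.47 ± 0.14 in mdx sln+/- against WT (adjusted p = 0.00259). On the linear scale Gm26825 held 12.4 and 11.7% of the lincRNA sum in WT, 33.0 to 39.4% in mdx and 30.8 to 34.6% in mdx sln+/-. Without it, lincRNAs took 0.238 and 0.232% of the library in WT, 0.187 to 0.193% in mdx and 0.179 to 0.188% in mdx sln+/-. With Gm26825 included, lincRNAs took 0.272 and 0.262% in WT, 0.283 to 0.318% in mdx and 0.260 to 0.281% in mdx sln+/-, so that mdx lay above both other genotypes, which overlapped each other. Without it the share was lower in all 6 libraries of the mdx groups than in WT.

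Hspa8 itself had a lower mean in mdx, which did not pass the test. It stood at log2 levels of 8.04 and 7.72 in WT, 7.78, 7.42 and 7.48 in mdx, and 7.36, 7.48 and 7.20 in mdx sln+/-, so that WT and mdx overlapped. Its change was -0.32 ± 0.15 in mdx against WT (limma, adjusted p = 0.196). The pseudogene Gm15459 stood at 9.14 and 8.98 in WT and 9.43, 9.26 and 9.44 in mdx, a change of 0.32 ± 0.10 (adjusted p = 0.0832). Together with the pseudogenes Gm6210 and Gm8355, the linear values of this family summed to log2 levels (mean ± SD) of 10.03 ± 0.16 for the 2 WT libraries, 10.76 ± 0.13 for the 3 mdx libraries and 10.59 ± 0.12 for the 3 mdx sln+/- libraries. Gm26825 made up 26.9 and 26.0% of that sum in WT, 50.2 to 51.8% in mdx and 49.3 to 50.6% in mdx sln+/-. How reads were divided among near-identical members was not tested.

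**Figure D1:**
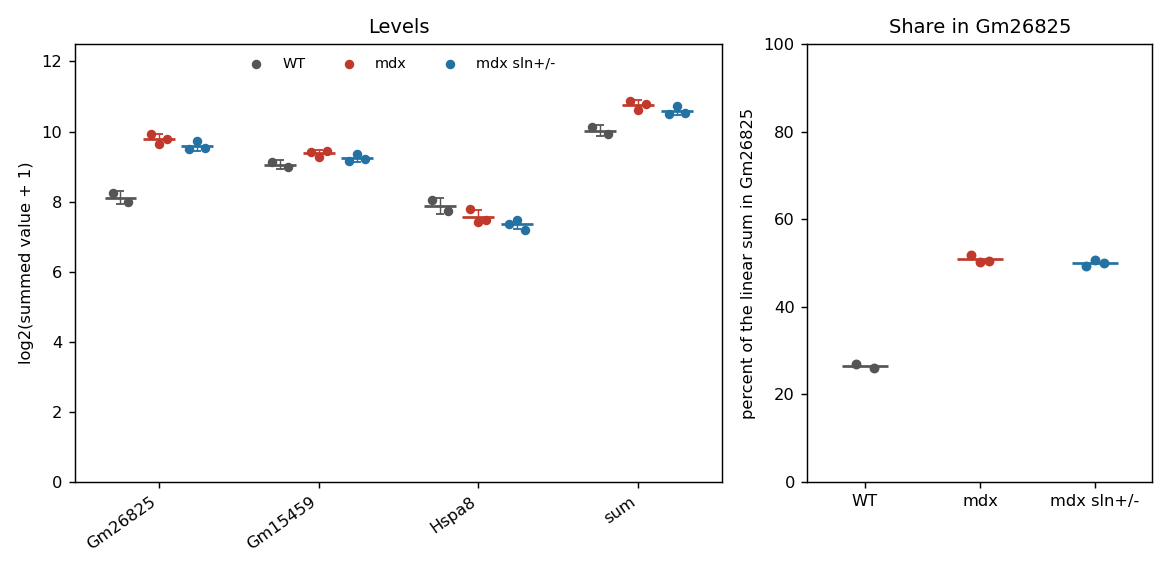
Left, log2(summed value + 1) of Gm26825, its antisense pseudogene Gm15459, Hspa8 and the sum of the family in each library, with dots for libraries, lines for group means and bars for the SD. Right, the percent of the linear family sum in Gm26825, which was 26.0 to 26.9% in WT and 49.3 to 51.8% in the other 6 libraries.

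Across the whole set, more lincRNAs were called lower than higher in mdx. In limma 40 of the 178 tested lincRNAs passed an adjusted p of 0.05 in mdx against WT, 14 higher and 26 lower. Over all 13783 genes tested 15.1% passed, 8.15% higher and 6.94% lower. The median change of the lincRNAs was -0.11, against 0.02 over all genes. Without the filter on low values 47 of 224 passed, 15 higher and 32 lower, where 14.2% of all genes did. Part of this balance rests on genes that met the filter on low values in 1 genotype alone, where they had to be high. Of the 14 that met it in WT alone 8 were called lower, and of the 4 that met it in mdx alone 2 were called higher. Among the 157 that met it in libraries of more than 1 genotype 12 were called higher and 18 lower. These 157 are not free of the filter either. Eprn, Gm26880, Gm33424 and Gm36372, all called higher, reached the value in no WT library and so had to be high in the mdx groups. Groups did not overlap for 100 of the 178 lincRNAs (56.2%), where this held for 51.4% of all genes. The count was 19 (6 higher, 13 lower) without WT 2 and 8 (3 higher, 5 lower) without both WT 2 and mdx sln+/- 3, which had the lowest Y-linked sums of their genotypes. In both cases the lone WT library was assumed to vary like the others, and the number called over all genes was lower too. Without each library in turn calls were kept by Gm26825, Gm26880, Eprn, Gm26778, Lsmem2, Gm10635, 4632404H12Rik, Gm43672, 5031425E22Rik and D830032E09Rik. Gm5860 and Gm24474 kept theirs too, but met the filter on low values in WT alone, where they had to be high. How many of all genes kept theirs was not counted.

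**Figure D2:**
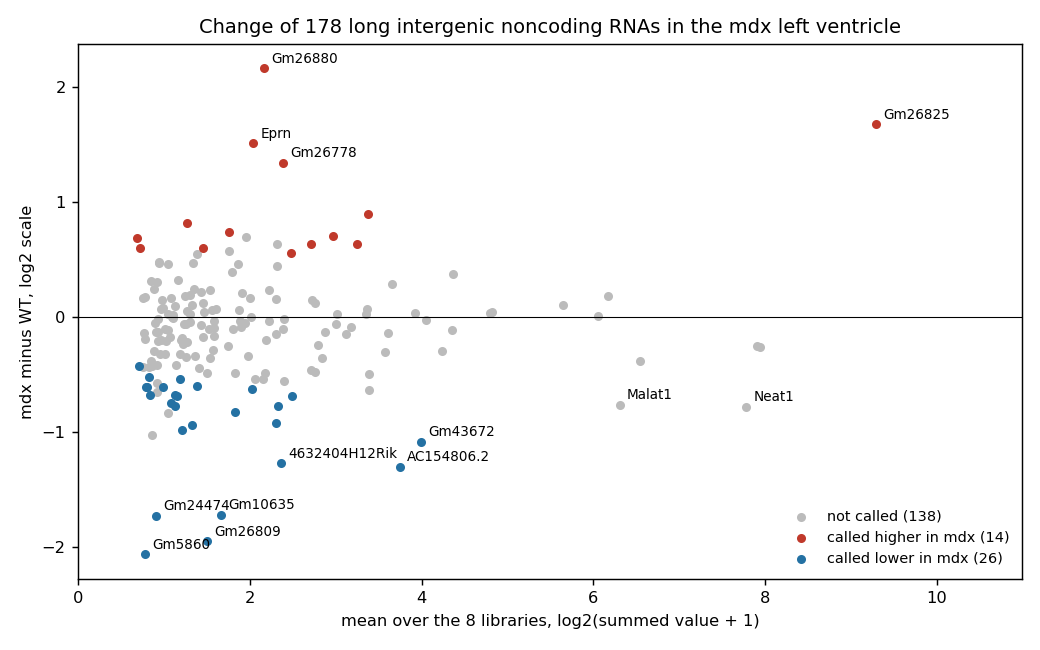
Each dot is 1 of the 178 tested lincRNAs, with its mean log2(summed value + 1) over the 8 libraries on the x axis and its change in mdx against WT on the y axis, both on a log2 scale. Red marks the 14 called higher and blue the 26 called lower. The mean includes the 6 libraries of the mdx groups, so a change moves a gene along the x axis too. Gm26825 is the called gene farthest to the right.

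The set was split by sequence, because a transcript that matches another gene can collect its reads. A transcript counted as a copy where at least 80% of it matched another gene at 95% identity or more, and as partial where at least 150 bases did. There were 10 copies, 24 partial matches, 74 genes whose exons overlap another gene and 116 with neither. Among the tested genes, calls in mdx against WT numbered 3 of 9 copies, 5 of 20 partial matches, 8 of 52 with exon overlap and 24 of 97 with neither. Over all 13783 genes 15.1% were called. The last class, whose reads are least open to mixing, had 8 higher and 16 lower.

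Among genes with a sequence of their own, the largest rise was that of Eprn (ephemeron), a lincRNA first described in embryonic stem cells that leave the naive state. It lies at chr13:73344665-73347384, minus strand, with 3 exons. It stood at log2 levels of 0.66 and 0.85 in WT, 1.99, 2.49 and 2.31 in mdx, and 2.73, 2.44 and 2.83 in mdx sln+/-. WT did not overlap either mdx group, and the 2 mdx groups overlapped each other. Eprn rose by 1.51 ± 0.19 in mdx (limma, adjusted p = 0.00624) and by 1.91 ± 0.19 in mdx sln+/- against WT (adjusted p = 0.00319). Its linear values in WT were 0.58 and 0.80, so it met the filter on low values only in the groups where it was high. These p-values are therefore not independent of the filter. Lsmem2 (chr9:107593841-107597075, minus strand) is filed as a lincRNA in the table, although its symbol names a leucine-rich single-pass membrane protein. It stood at 2.41 and 2.63 in WT, 3.17, 3.14 and 3.35 in mdx, and 2.97, 3.08 and 2.96 in mdx sln+/-. It rose by 0.70 ± 0.12 in mdx (adjusted p = 0.0134). AU020206 rose by 0.90 ± 0.16, Gm33424 by 0.81 ± 0.14, Gm26795 by 0.63 ± 0.12 and Gm36372 by 0.60 ± 0.14, each without overlap between WT and mdx. Like Eprn, Gm33424 and Gm36372 reached the filter value in no WT library.

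Without WT 2 the calls of AU020206 (adjusted p = 0.0757 by limma), Gm33424 (0.0722), Gm26795 (0.0746) and Gm36372 (0.106) ended. That of Gm36372 also ended without WT 1 (0.0796), mdx 3 (0.0585), mdx sln+/- 1 (0.0771) or mdx sln+/- 3 (0.0587).

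RefSeq gives a start site for 107 of the 224 lincRNAs, which lies within 200 bases of the deposited start for 76. The starts of Eprn and Lsmem2 are the deposited ones, and that of 4632404H12Rik, a lincRNA that fell, lies 160 bases upstream. Their promoters (RefSeq, GRCm38.p6, 250 bases before to 50 after the start, 5′ to 3′) are shown because these RNAs met neither limit for shared sequence and overlapped no other exon. Capitals mark matches, on either strand, to the letters searched. These were TATAAA for the TATA-binding protein, CACGTG for basic helix-loop-helix factors (an E-box) and TGACTCA for the Fos and Jun dimer. The others were TGACGTCA for cyclic AMP response factors, GGGCGG for Sp factors (a GC box) and TTCNNNGAA for STAT factors. The matches in the 3 promoters do not overlap.
Eprn, chr13:73347335-73347634, minus strand: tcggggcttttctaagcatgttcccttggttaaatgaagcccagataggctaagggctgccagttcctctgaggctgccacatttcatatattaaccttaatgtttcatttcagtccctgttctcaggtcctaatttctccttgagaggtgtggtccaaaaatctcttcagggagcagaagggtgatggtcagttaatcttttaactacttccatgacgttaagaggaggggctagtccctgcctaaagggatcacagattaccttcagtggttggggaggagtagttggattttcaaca
Lsmem2, chr9:107597026-107597325, minus strand: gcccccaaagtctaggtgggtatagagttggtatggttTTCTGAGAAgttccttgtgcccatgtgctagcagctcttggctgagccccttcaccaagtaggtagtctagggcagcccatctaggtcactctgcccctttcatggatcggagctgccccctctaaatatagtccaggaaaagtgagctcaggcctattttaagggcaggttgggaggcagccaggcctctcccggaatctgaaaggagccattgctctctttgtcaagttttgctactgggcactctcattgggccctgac
4632404H12Rik, chr3:89773351-89773650, minus strand: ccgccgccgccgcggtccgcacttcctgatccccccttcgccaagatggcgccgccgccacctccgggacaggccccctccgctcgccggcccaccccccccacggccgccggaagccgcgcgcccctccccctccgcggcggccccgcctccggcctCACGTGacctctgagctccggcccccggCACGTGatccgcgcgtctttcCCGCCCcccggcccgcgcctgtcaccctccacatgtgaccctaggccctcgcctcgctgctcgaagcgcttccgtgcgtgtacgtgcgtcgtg
The Eprn promoter held none of the letters searched. That of Lsmem2 held 1 match to the STAT letters, which occur in 8.30% of all 32851 RefSeq promoters of this length. That of 4632404H12Rik held 2 E-boxes (7.15% hold at least 1) and 1 GC box (35.7%). The stretch shown for 4632404H12Rik also contains the start of the neighbouring gene Ube2q1 on the other strand, so its letters cannot be given to the lincRNA alone. A match describes these letters and no binding.

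The other large rises came from transcripts that share sequence with another gene. Gm26880 (chr4:146509094-146511764, minus strand) stood at 0.68 and 0.58 in WT, 3.11, 2.47 and 2.79 in mdx, and between 2.22 and 2.89 in the 3 mdx sln+/- libraries. Near 0.6 in WT and above 2.2 in the other 6 libraries, it showed the largest rise of any tested lincRNA in mdx, 2.16 ± 0.25 (limma, adjusted p = 0.00475). Like Eprn, Gm26880 reached the filter value in no WT library, so that p-value is not independent of the filter. Its transcript shares stretches of at least 150 bases with 7 other genes, among them 428 bases at 97.0% identity with AI506816, which fell by 2.15 ± 0.11 (adjusted p = 2.51e-04). Gm26778 (chr14:102978220-102982528, plus strand) runs antisense to the mRNA of Kctd12, an auxiliary subunit of GABA-B receptors, over 3687 of its 3805 bases. It stood at 1.16 and 1.54 in WT and 2.63, 2.91 and 2.53 in mdx, and rose by 1.34 ± 0.20 (adjusted p = 0.00924), while Kctd12 rose by 0.75 ± 0.16 (adjusted p = 0.0226). Gm26752 overlaps Ppp1r14c, an inhibitor of protein phosphatase 1, on the other strand, and the changes were 0.74 ± 0.14 for the lincRNA (adjusted p = 0.0172) and 0.89 ± 0.23 for Ppp1r14c (adjusted p = 0.0440). Without strand in the counting, reads of each lincRNA and its partner cannot be told apart. The call of Gm26752 ended without WT 2 (adjusted p = 0.0811) or mdx 1 (0.0540).

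**Figure D3:**
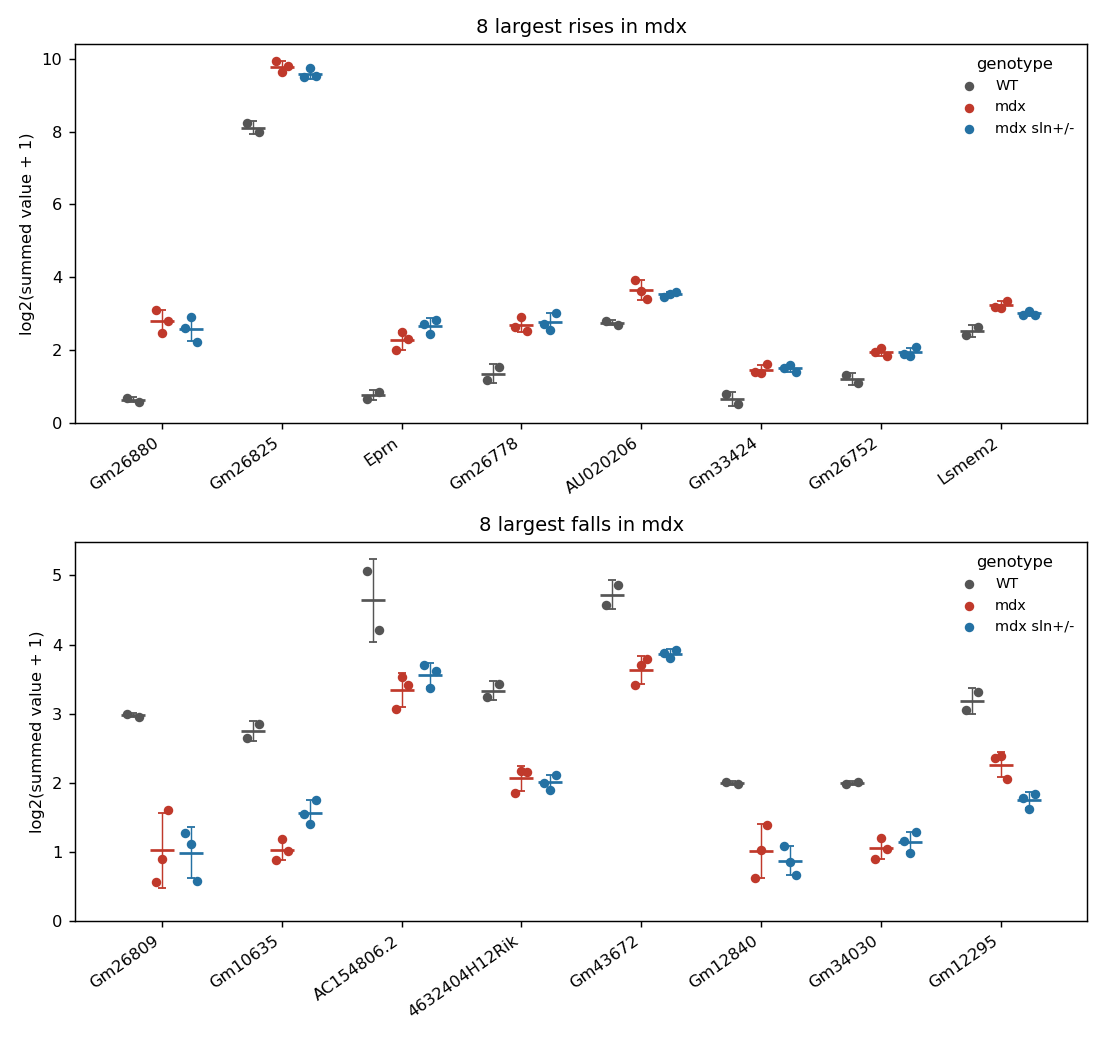
Log2(summed value + 1) of the 8 lincRNAs with the largest rises (top) and the 8 with the largest falls (bottom) in mdx against WT, among called genes with a mean log2 level of at least 1 and no overlap. Dots are libraries, lines group means and bars the SD. In the 16 genes no mdx library overlaps WT.

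Among the falls, Gm10635 (chr9:79444037-79519302, minus strand) dropped the furthest of genes with their own sequence and a mean log2 level of at least 1. It stood at 2.65 and 2.85 in WT, 0.88, 1.19 and 1.00 in mdx, and 1.54, 1.41 and 1.75 in mdx sln+/-. The 3 groups did not overlap, with mdx lowest, and the fall in mdx was by 1.72 ± 0.16 (limma, adjusted p = 0.00238). 4632404H12Rik, which starts 376 bases from the ubiquitin-conjugating enzyme gene Ube2q1 and on the other strand, stood at 3.23 and 3.43 in WT and at 1.86, 2.17 and 2.16 in mdx. It fell by 1.27 ± 0.14 (adjusted p = 0.00465). Both of its transcripts were lower, the spliced one from 2.55 ± 0.18 to 1.00 ± 0.21 and the one with 1 exon from 6.54 ± 0.76 to 2.19 ± 0.30 on the linear scale (SD, n = 2 and 3). Gm43672 (chr3:22074412-22076142, minus strand), next to Tbl1xr1, stood at 4.57 and 4.87 in WT and at 3.41, 3.70 and 3.79 in mdx, and fell by 1.09 ± 0.15 (adjusted p = 0.00701). 5031425E22Rik, beside the chromatin regulator gene Kmt2e, fell by 0.78 ± 0.11 and D830032E09Rik by 0.83 ± 0.15, each without overlap between WT and mdx.

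Gm5860 and Gm24474, with mean levels under 1, were chosen after their values were seen, as were D830032E09Rik and Gm26795 above. Both met the filter on low values in WT alone, so their differences are given as a description without a test. Gm5860 stood at 2.15 and 2.42 in WT and at 0.07, 0.21 and 0.38 in mdx, a difference of -2.07. Its exons overlap those of Gm11264 on the other strand, so reads of the overlap are open to mixing. Gm24474 stood at 2.18 and 2.04 in WT and at 0.20, 0.44 and 0.50 in mdx, a difference of -1.73. Both were thus close to the floor of the scale in mdx, where log2(value + 1) understates a fold change. In bulk tissue fewer cells of a type and less RNA per cell cannot be told apart.

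Some falls belong to genes beside or within families. Gm34030, whose nearest coding gene is the cardiac transcription factor gene Hand2 at 7059 bases, fell by 0.94 ± 0.15 (limma, adjusted p = 0.00961), while Hand2 had a change of 0.05 ± 0.11. Exons of Gm34030 overlap those of 5033428I22Rik, another lincRNA, on the other strand. Without strand in the counting, reads of the overlap cannot be told apart. Gm12295 (chr11:65277654-65365798, minus strand), 7665 bases from Myocd, which encodes the coactivator myocardin, stood at 3.05 and 3.32 in WT, 2.35, 2.38 and 2.05 in mdx, and 1.78, 1.62 and 1.84 in mdx sln+/-. Its 3 groups did not overlap, and it fell by 0.92 ± 0.16 in mdx (adjusted p = 0.0130). Myocd had a change of 0.34 ± 0.09 (adjusted p = 0.0511). Gm26809 fell by 1.95 ± 0.34 and Gm12840 by 0.98 ± 0.24, and these share 513 bases at 97.1% identity on opposite strands. AC160336.1, a lincRNA that shares 1184 bases with Gm26809, had a change of -0.03 ± 0.15. AC154806.2 fell by 1.30 ± 0.27, and 2391 aligned bases match Gm47547 at 97.7% identity, so its reads may belong to that gene. Without WT 2 the calls of Gm34030 (0.0512), Gm12295 (0.0677), Gm26809 (0.0677) and Gm12840 (0.129) ended. That of Gm12840 ended without any library except mdx 3 (adjusted p up to 0.129), and that of AC154806.2 without WT 1 (0.0565), mdx 1 (0.0811) or mdx 3 (0.0519).

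LincRNAs often start back to back with a coding gene, and 38 of the 224 have a divergent coding start within 5000 bases. In 25 such pairs both genes were tested. In mdx against WT 6 of the lincRNAs and 3 of the neighbours were called, where 15.1% of all 13783 genes were, and in 2 pairs both were lower. How often both genes of a neighbouring pair are called over all genes was not counted. The 2 pairs with both lower were Gm43672 with Tbl1xr1, a corepressor subunit 510 bases away that fell by 0.47 ± 0.08 (limma, adjusted p = 0.0117), and 5031425E22Rik with Kmt2e, 172 bases away, which fell by 0.47 ± 0.11 (adjusted p = 0.0317). Ube2q1, beside 4632404H12Rik, had a change of 0.07 ± 0.07. For the nearest coding gene at any distance 145 pairs could be compared, with 30 lincRNAs and 24 neighbours called, beside the same 15.1% of all genes. Of these pairs 4 were both higher and 2 both lower, 1 had a higher lincRNA with a lower neighbour and 4 had a lower lincRNA with a higher neighbour. Gm33424 was in 1 of the 4 pairs with both higher, with the transcription factor gene Nfil3 35129 bases away at 1.01 ± 0.19 (adjusted p = 0.0168).

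The well-known nuclear lincRNAs had lower means in mdx that did not pass. Malat1, which marks nuclear speckles, stood at 6.59 and 7.29 in WT, 5.72, 6.28 and 6.51 in mdx, and 5.98, 5.92 and 6.18 in mdx sln+/-. WT lay above every other library, but the WT libraries differed from each other by almost as much, and the change of -0.77 ± 0.28 did not pass (limma, adjusted p = 0.109). Neat1, the scaffold of paraspeckles, stood at 8.93 and 7.94 in WT and at 7.53, 7.59 and 7.84 in mdx, a change of -0.78 ± 0.28 (adjusted p = 0.101). The value in Neat1 rests on WT 1: it was -0.29 without WT 1 (adjusted p = 0.299) and -1.27 without WT 2, where it was called (0.0262). For Malat1 it was -0.42 without WT 2 (adjusted p = 0.431) and -0.44 without mdx 1 (0.289). In mdx sln+/- against WT the changes were -0.91 for Malat1 (adjusted p = 0.0670) and -0.96 for Neat1 (0.0548). Malat1 passed there without WT 1 (0.0468) or mdx 1 (0.0429), and Neat1 without WT 2 (0.0186), while without WT 1 Neat1 had -0.47 (0.120). Neat1 also passed there under median-ratio (0.0467) and upper-quartile (0.0474) scaling, and both genes passed in the fit of group alone (0.0318 for Malat1 and 0.0249 for Neat1). The long Neat1 transcript of 20771 bases, which paraspeckles need, had linear values (mean ± SD) of 26.3 ± 11.3 for WT, 13.9 ± 1.49 for mdx and 11.9 ± 1.15 for mdx sln+/- libraries. The short one had 339 ± 158, 188 ± 22.3 and 166 ± 18.02. The long transcript contains the short one, so that the 2 share reads. 2900097C17Rik, the mouse Norad that binds Pumilio proteins, had a change of -0.26 ± 0.08 (adjusted p = 0.0801).

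Of the other lincRNAs with the highest deposited levels, few moved far. 1700020I14Rik, the mouse Cyrano, stood at 8.14 and 8.09 in WT, 7.77, 7.92 and 7.89 in mdx, and 7.80, 7.75 and 7.89 in mdx sln+/-, so that WT was above all 6. The change was -0.26 ± 0.08 in mdx (limma, adjusted p = 0.0707), and it fell by 0.31 ± 0.08 in mdx sln+/- (0.0423). Gm5532 had -0.38 ± 0.12 in mdx (adjusted p = 0.0738) and fell by 0.51 ± 0.12 in mdx sln+/- (0.0321). Both calls in mdx sln+/- ended without either WT library, with adjusted p up to 0.113 for 1700020I14Rik and 0.105 for Gm5532 there. They also ended without mdx sln+/- 1 (0.179 and 0.137) or mdx sln+/- 3 (0.0873 and 0.120), and that of 1700020I14Rik without mdx 2 (0.0744), mdx 3 (0.0576) or mdx sln+/- 2 (0.0743). Tmem250-ps stayed within 6.02 to 6.09 in the 8 libraries. 1810058I24Rik, which encodes a mitochondrial micropeptide, had changes of 0.18 ± 0.07 (adjusted p = 0.112) and 0.24 ± 0.07 (0.0509).

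Host genes of small nucleolar RNAs had 5 measured members of 21 listed, of which 4 were tested, 0 rose and 1 fell in mdx. Over all 13783 genes 15.1% were called in mdx against WT, 8.15% higher and 6.94% lower. Snhg20 stood at 1.81 and 1.75 in WT and at 1.02, 1.27 and 1.26 in mdx, and fell by 0.60 ± 0.13 (limma, adjusted p = 0.0237). Snhg18, which starts 148 bases from Sema5a, had -0.55 ± 0.16 (adjusted p = 0.0609) and fell by 0.66 ± 0.16 in mdx sln+/- against WT (0.0354). Snhg6 had 0.17 ± 0.15. The call of Snhg20 in mdx ended without WT 1 (0.0724), WT 2 (0.0785), mdx 1 (0.0569) or mdx sln+/- 1 (0.0645). The call of Snhg18 in mdx sln+/- ended without WT 2 (0.152), mdx 3 (0.0504), mdx sln+/- 1 (0.162) or mdx sln+/- 3 (0.101), and without WT 1 it also passed in mdx (0.0493).

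LincRNAs listed for inflammation and immune cells had 3 measured members of 23 listed, of which 2 rose and 0 fell in mdx. Over all 13783 genes 15.1% were called in mdx against WT, 8.15% higher and 6.94% lower. AW112010, induced in myeloid cells and translated into a small protein, stood at 2.72 and 2.71 in WT, 3.49, 3.20 and 3.35 in mdx, and 3.41, 3.63 and 3.41 in mdx sln+/-. It rose by 0.63 ± 0.12 (limma, adjusted p = 0.0193). AU020206 stood at 2.80 and 2.69 in WT and at 3.92, 3.62 and 3.39 in mdx, and Gm26917 had a change of 0.24 ± 0.16. Of the macrophage markers all 15 were measured, 5 were called higher and 0 lower in mdx, and none was at 0. Their summed log2 level was 8.09 to 8.12 in WT, 8.43 to 8.78 in mdx and 8.47 to 8.73 in mdx sln+/-. Markers of other cells were called in mdx too. Of 10 fibroblast markers 2 were higher, of 10 endothelial ones 2 were higher and 1 lower, and of 9 for smooth muscle and pericytes 2 were higher. Of 11 lymphocyte markers 2 were measured, with a summed level of 2.09 to 2.26 in WT, 2.59 to 3.32 in mdx and 2.98 to 3.05 in mdx sln+/-. The part of these cells in the rise of AW112010 and AU020206 was not tested. The call of AW112010 ended without WT 1 (0.0556), WT 2 (0.0811), mdx 1 (0.0595) or mdx 3 (0.0504). Of the lincRNAs described in heart or muscle, 4 of 32 listed were measured (Bvht, Gm12295, Malat1 and Neat1), and 1, Gm12295, fell. Of the lists for the X inactivation centre (4 listed) and microRNA hosts (25 listed) 0 were measured. The latter list is not complete: measured lincRNAs outside it have exons that overlap a microRNA on the same strand, among them Gm26532 (Mir24-2) and 6720427I07Rik (Mirlet7d).

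**Figure D4:**
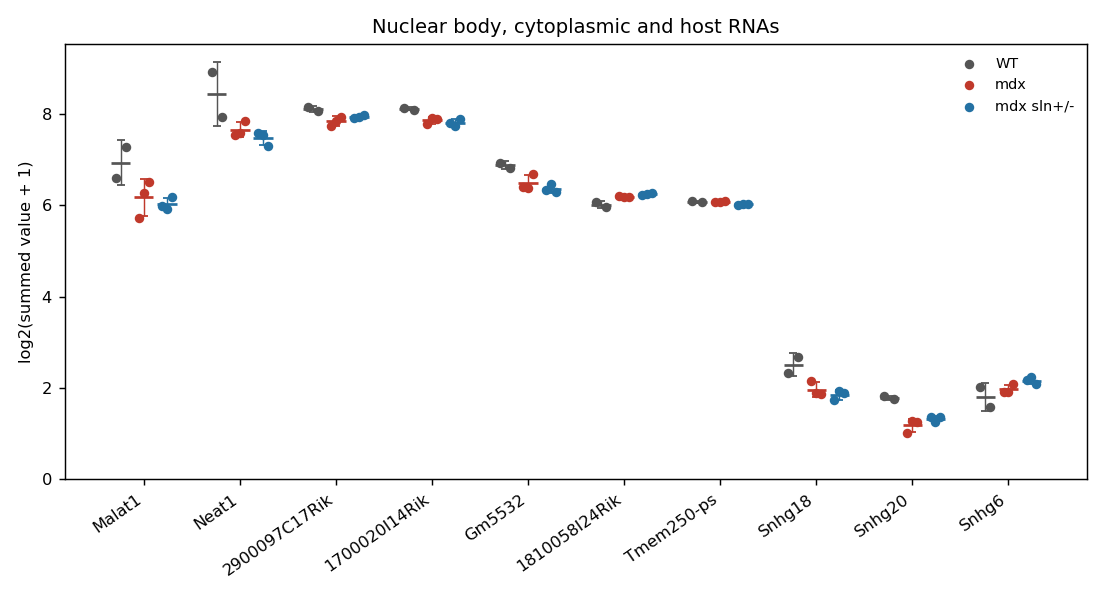
Log2(summed value + 1) of lincRNAs with described roles or high levels and of small nucleolar RNA hosts in each library. Dots are libraries, lines group means and bars the SD. WT lies above both mdx groups in Malat1, Neat1, 2900097C17Rik, 1700020I14Rik, Gm5532, Snhg18 and Snhg20, with the widest WT spread in Neat1 (8.93 and 7.94).

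The loss of 1 Sln allele on the mdx background was followed by no called change in a lincRNA. In limma 0 of the 178 passed in mdx sln+/- against mdx, as did 0.0% of all 13783 genes, and the smallest adjusted p of a lincRNA was 0.578. At an unadjusted p under 0.05 there were 20 lincRNAs and 1186 genes in all. Groups did not overlap for 52 of the 178 (29.2%), where this held for 24.8% of all genes. Among those with higher means, the smallest p belonged to Gm26718 (0.68 ± 0.16), Gm10635 (0.54 ± 0.14), Gm26527 (0.67 ± 0.20) and C030037D09Rik (0.56 ± 0.17). Gm26718 met the filter on low values in mdx sln+/- alone, where it had to be high, so its difference is a description without a test. C030037D09Rik, divergent to the RNA-binding protein gene Msi2, stood at 1.71, 1.92 and 1.80 in mdx and at 2.49, 2.24 and 2.38 in mdx sln+/-, close to WT at 2.03 and 2.69. Among those with lower means they were Gm12295 (-0.52 ± 0.13, unadjusted p = 0.00537 by limma), BC043934 (-0.52 ± 0.14), Gm45351 (-0.34 ± 0.13) and 1810012K08Rik (-0.28 ± 0.11). Gm45351 met the filter in mdx alone, and its difference too is a description without a test. In Gm10635 the mdx sln+/- libraries lay between mdx and WT, and in Gm12295 they lay beyond mdx. These p-values do not show that the genotypes have the same lincRNA levels.

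**Figure D5:**
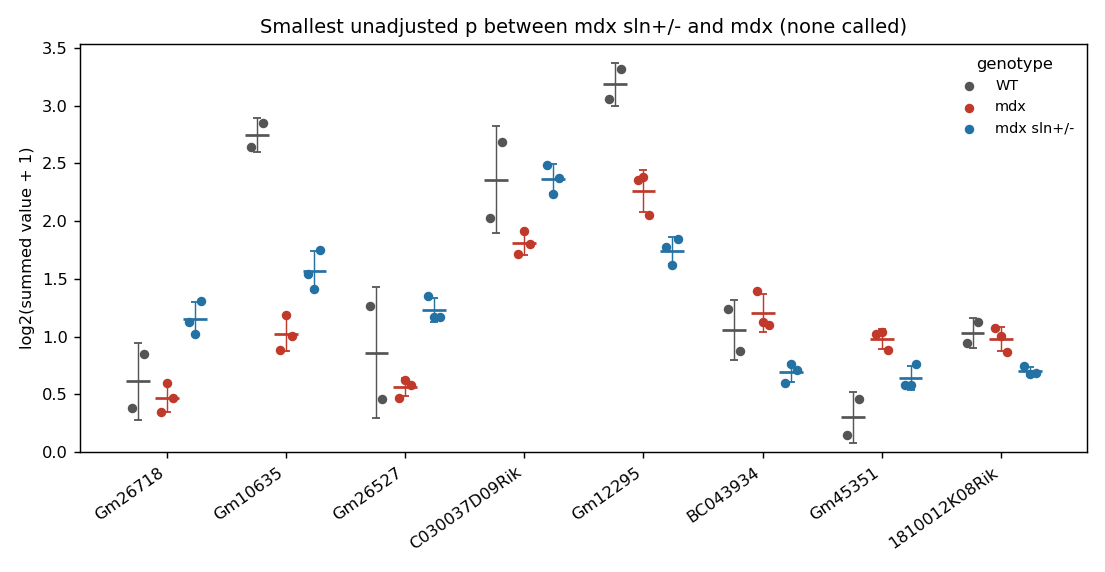
Log2(summed value + 1) of the 8 lincRNAs with the smallest unadjusted p between mdx sln+/- and mdx, 4 higher (left) and 4 lower (right). Dots are libraries, lines group means and bars the SD. None was called over all genes. Gm26718 met the filter on low values in mdx sln+/- alone and Gm45351 in mdx alone.

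Against WT, the mdx sln+/- ventricle gave counts near those of mdx. In limma 42 of 178 lincRNAs passed, 13 higher and 29 lower, where 15.9% of all genes passed, 9.41% higher and 6.5% lower. The median change was -0.10, against 0.05 over all genes. Groups did not overlap for 125 of the 178 (70.2%), where this held for 59.8% of all genes. This comparison and that of mdx use the same WT libraries. Of the 14 genes that met the filter in WT alone 10 were called lower here, and of the 157 that met it in more than 1 genotype 13 were called higher and 19 lower. The 157 include Eprn, Gm26880, Gm33424 and Gm36372, which reached the filter value in no WT library and so only where they were high. Gm12295 stood lower here, with a fall by 1.44 ± 0.16 (adjusted p = 0.00389), 5031425E22Rik fell by 1.02 ± 0.11 (0.00420), and Gm36372 rose by 0.89 ± 0.14 (0.00924). Gm20619 rose by 0.94 ± 0.19 (0.0209) and Gm26532, which holds Mir24-2, fell by 0.90 ± 0.23 (0.0425). Neither of these 2 passed in mdx, where Gm20619 had 0.57 ± 0.19 and Gm26532 had -0.83 ± 0.23, and mdx sln+/- minus mdx was 0.37 ± 0.16 and -0.06 ± 0.20. Leaving out 1 library gave 11 calls (without mdx sln+/- 1), 17 (without mdx sln+/- 3), 19 (without WT 2) and 31 to 47 otherwise, and without WT 2 and mdx sln+/- 3 there were 2. The number called over all genes moved the same way in each of these fits. The call of Gm36372 ended without mdx sln+/- 1 (0.0596). Those of Gm20619 and Gm26532 ended without WT 1 (0.0511 and 0.120), mdx sln+/- 1 (0.0882 and 0.126) or mdx sln+/- 3 (0.0654 and 0.146). Gm20619 lost it also without WT 2 (0.10), and Gm26532 without mdx 2 (0.0647), mdx 3 (0.0615) or mdx sln+/- 2 (0.0646).

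The shares called differed from class to class of the table's annotation, and no test of that difference was made. In mdx against WT 7.87% of the tested lincRNAs were called higher and 14.6% lower. Antisense RNAs had 3.90% higher and 16.2% lower (n = 154 genes), processed transcripts 6.80% and 10.7% (n = 103). Processed pseudogenes, the largest class without a protein product, had the other balance, with 4.52% higher and 2.68% lower (n = 1195). Protein-coding genes had 8.62% higher and 7.01% lower (n = 11916).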

How the data were processed

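Total RNA of the left ventricle was sequenced with paired ends in 8 libraries. The submitters' processing notes name Partek, STAR 2.6.1, limma and mm10. Deposited were log2 values of 33027 transcripts of 14578 genes, in 16 columns (r1 and r2 of each library, per the file headers). Their range points to normalized abundances with 1 added before the logarithm. What r1 and r2 mean, and whether length or strand was used, is not given in the sources used here. r1 and r2 (correlation 0.981 to 0.987) were averaged to 1 replicate, turned back to linear values, summed over the transcripts of a gene and tested as log2(value + 1). All columns were mapped (0 unmapped). Depth is unknown, so no precision from counts can be given.

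The 13783 genes that reached a value of 1 in 2 or more libraries were fitted in limma 3.58.1 (R 4.3.3), with group and the term for mdx 2 and mdx sln+/- 2, 4 residual degrees of freedom, a prior that follows mean expression, and Benjamini-Hochberg adjustment over all genes with a threshold of 0.05. The fit was tested on simulated data first. Errors after ± are standard errors unless SD is named. Shared sequence was found with blastn 2.17.0 against GENCODE M21 transcripts, and positions are those of M21, counted from 1. Python 3.11.15, numpy 2.4.6, pandas 2.3.3 and matplotlib 3.10.9 were used.

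The members, lists and tests were chosen with earlier results of these data known. Named are Malat1 and Neat1 (Xist is not analysed here); in comparisons with WT the 8 largest rises and 8 largest falls among called genes with a mean log2 level of at least 1 and no overlap; in mdx sln+/- against mdx the 4 highest and 4 lowest by p; the 8 highest levels; and up to 3 genes of each role list by p. Gm5860, Gm24474, D830032E09Rik and Gm26795 were chosen after their values were seen. Alternatives tried were a group-only fit, a replicate block, median-ratio and upper-quartile scaling, a pseudocount of 0.1, no filter, a mean value of at least 5, r1 or r2 alone, the style of the library's column name as a term, only the groups compared, the largest transcript, and leaving out libraries.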

Additional observations from a re-analysis of the deposited data

How the results depend on the processing

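In mdx against WT 40 lincRNAs were called, beside 2080 of all 13783 genes. The fit of group alone, without the term for libraries numbered 2, called 66 (21 higher, 45 lower), beside 3798 genes in all. A mean value of at least 5 left 40 lincRNAs and called 7 (5 higher, 2 lower), beside 1564 genes in all. That mean includes the mdx libraries, so a fall can remove a gene and a rise admit it. The style of the column names as a term called 14 (559 genes in all), and a fit of only those 2 groups 14 (529 genes in all). Without WT 2 and mdx sln+/- 3 there were 8, and leaving out 1 library gave 19 to 35. In mdx sln+/- against WT 42 were called: 71 in the group-only fit, 12 with a mean value of at least 5, 18 with name style as a term, 2 without WT 2 and mdx sln+/- 3, and 11 to 47 with 1 library left out. Over all genes, 2193 were called in the main fit of mdx sln+/- against WT and 3996 in the group-only fit. There were 1737 with a mean value of at least 5 and 711 with name style as a term. In all the alternatives named so far, the number called over all genes moved the same way as that of the lincRNAs. Those alternatives use fewer libraries, fewer genes or 1 more or fewer term, and the cause was not tested further. In mdx sln+/- against mdx 0 were called under every alternative run. All 40 calls in mdx kept their direction in 21 alternatives, as did 41 of the 42. The exception was Gm10076, which is 99.5% identical to Rpl41 and turned in the r1 columns alone. Gm26825 was called in mdx under all 21. In mdx sln+/- it lost the call without WT 2 and mdx sln+/- 3 (adjusted p = 0.0638 by limma).

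Same-numbered mdx and mdx sln+/- libraries correlated at -0.264, -0.996 and -0.311 in their deviations from the group means, the second through the removed term. Deviations cancel within a group, so the removed term pulls the other correlations down too. Whether replicate numbers pair the libraries therefore cannot be read from these values. With the replicate block 46 lincRNAs were called in mdx and 44 in mdx sln+/- against WT. In the block the change of Malat1 in mdx was -0.89 (adjusted p = 0.0210 by limma), past the threshold, and in mdx sln+/- against WT it called Malat1 (-1.04, adjusted p = 0.0149) and Neat1 (-0.96, 0.0448). Median-ratio scaling shifted the median of all genes by -0.02, -0.03 and -0.05 in the 3 comparisons. With 2 WT libraries and unknown depth, changes of weak lincRNAs are the least certain.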
